A study of Caenorhabditis elegans with 12 samples.

Results

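The genes described here are 10 RNA-binding regulators of the oocyte and the early embryo of *Caenorhabditis elegans*, chosen by name, and all 10 were found among the 19089 genes of the table. They are *gld-1*, *lin-41*, *puf-5*, *oma-1* and *oma-2*, which act mainly while oocytes form and mature, and *mex-3*, *mex-5*, *mex-6*, *pos-1* and *pie-1*, which act mainly after fertilization. Messenger RNA was sequenced from pools of whole worms in 4 groups of 3 repeats each, 12 libraries in all. The study asked how a short peptide, the 5MER, changes gene expression in worms that make the human Aβ peptide, and whether this change depends on Aβ.

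All worms were of strain CL2006, in which the muscle promoter of *unc-54* drives human Aβ in body wall muscle, a promoter of muscle and not of the germ line. They were in the second generation on their RNAi bacteria at 20 degrees, were moved daily away from their progeny and were harvested on day 6 of adulthood. ABPS worms ate bacteria with Aβ RNAi and were given the 5MER, AB0S worms ate the same bacteria and were given M9 buffer, EVPS worms ate bacteria with the empty vector and were given the 5MER, and EV0S worms had the empty vector and buffer. The 5MER or the buffer was given from day 1 of adulthood and added daily. The labels call the worms on the empty vector WT, although they carry the transgene. No row of the table holds the Aβ transgene, so its knockdown could not be checked here.

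A worm oocyte makes its maternal messenger RNAs well before they are needed and then stops transcription until after fertilization. During that time RNA-binding proteins, most of which bind the 3′ untranslated regions of these messages, decide when and where each one is translated. Some of these proteins act in the embryo, where they are sorted between the cells that will make the body and the cell that will make the germ line.

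The values are read counts per gene that the authors normalized with DESeq2 size factors and then corrected for the repeats; they are called normalized values below. They have no fixed unit, and the sequencing depth behind them is unknown. A linear model of log2(value + 1) with a term for the group and a term for the repeat was fitted in limma to the 12 libraries together. A gene is said to have passed, risen or fallen where the p adjusted over all genes by the Benjamini-Hochberg method was below 0.1. The p-values measure the spread that remains after the group and repeat terms, estimated from all 12 libraries and moderated by the spread of other genes. The study describes the 3 repeats as independent. In a pool of whole worms, fewer oocytes or embryos and less RNA per oocyte or embryo cannot be told apart, which holds for every value below.

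1 library stood apart from its group. EV0S repeat 3 scored 25.05 on principal component 1 (54.5% of the variance), against -36.77 and -33.94 for the other EV0S libraries, and the AB0S libraries lay between 36.13 and 44.86. The ABPS libraries were also spread widely, from -24.19 to 26.29. EV0S repeat 3 was the lowest of the 12 libraries for all 10 regulators, so the regulators' changes against EV0S are also given without it. The 3 repeats, averaged over the 4 groups, lay within 2.39% (*gld-1*) to 6.29% (*puf-5*) of each other in the corrected values. EVPS repeat 3, too, was the lowest of its group for all 10 regulators.

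The germ line was well represented in every library. Each of the 8 oocyte and eggshell markers and of the 6 meiotic markers averaged above 10, while *hlh-27* among 8 zygotic embryo markers and *spe-38* among 10 sperm markers averaged below 10. The zygotic embryo markers, genes that embryos switch on themselves, summed to between 409.8 and 884.5 normalized values in a library, against between 187600 and 247200 for the oocyte and eggshell markers. The regulators themselves summed to between 125587 and 178641, which is 0.5% to 0.651% of the sum of a library.

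Per kilobase of exon, the regulators ranked between 168 and 1227 of the 19085 genes that have an annotated length. *pos-1* was the highest, with 16860 ± 1550 normalized values per kilobase (mean ± SD over the 12 libraries), followed by *gld-1* with 11810 ± 1190, *puf-5* with 11240 ± 886 and *mex-5* with 11090 ± 1060. *oma-2* had 8618 ± 861 per kilobase, *mex-6* 6207 ± 630, *mex-3* 5971 ± 533 and *oma-1* 4621 ± 464. *lin-41* with 3041 ± 433 and *pie-1* with 2628 ± 209 were the lowest. *pos-1* was above *gld-1* in every library, with no overlap of their ranges. *gld-1*, *puf-5* and *mex-5* did not differ beyond their spread: *gld-1* was above *puf-5* in 11 of 12 libraries, and *puf-5* was above *mex-5* in 8. *mex-6* exceeded *mex-3* in all 12 libraries, but by no more than 1.07-fold, and *lin-41* exceeded *pie-1* in 11.

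With the empty vector, all 10 regulators were higher with the 5MER than with buffer, in each of the 3 repeats. 7 of the 10 rose at an adjusted p below 0.1 (*oma-1*, *oma-2*, *mex-3*, *mex-5*, *mex-6*, *pos-1* and *pie-1*), against 7.33% of all genes that changed and 5.51% that rose. The changes were small and alike in size, with log2 fold changes between 0.24 (*puf-5*) and 0.39 (*lin-41*), which is 1.19-fold to 1.31-fold, and with a median of 0.33. With Aβ RNAi, the 5MER groups did not separate for any regulator, and the fitted changes lay between -0.08 and 0.07. The plot of the level of the regulators in each library shows these values.

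**Figure D1:**
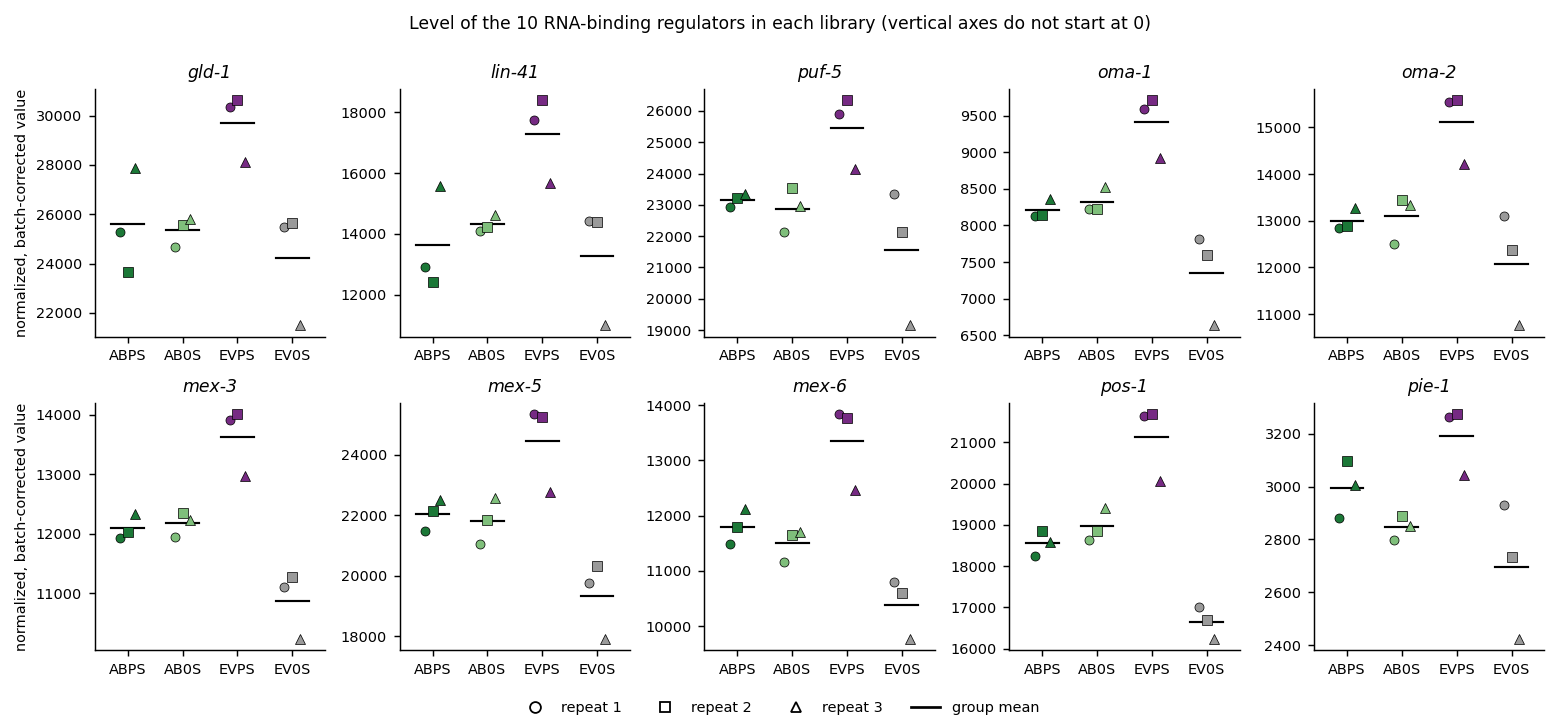
Normalized, batch-corrected values (vertical axes, which do not start at 0) of the 10 regulators in the 3 libraries of each group (points, shaped by repeat), with the group mean as a line. For every gene the 3 EVPS libraries lie above the 3 EV0S libraries, the triangle of EV0S repeat 3 is the lowest point, and the ABPS and AB0S libraries overlap.

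*gld-1* (WBGene00001595) lies on chromosome I from 7695681 to 7698222 on the plus strand (WBcel235, as are all positions here) and encodes a KH-domain protein that keeps many maternal messages silent in meiotic germ cells. It had 30338, 30620 and 28132 normalized values in EVPS repeats 1, 2 and 3, against 25487, 25647 and 21496 in EV0S. The groups do not overlap, but EV0S repeat 3 was 15.9% below the mean of the other EV0S libraries. The fitted change, 0.30 on the log2 scale (standard error 0.0932, limma adjusted p = 0.115), missed the threshold, and it was 0.20 when EV0S repeat 3 was left out. With Aβ RNAi the ABPS libraries had 25286, 23641 and 27877, and the AB0S libraries, with 24675, 25566 and 25815, fell inside that range.

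*lin-41* (WBGene00003026; chromosome I, 9334800 to 9342496, minus strand) encodes a TRIM-NHL protein that holds growing oocytes back from maturation and also times development in the larval skin. Its values were 17768, 18400 and 15691 in EVPS, against 14411, 14402 and 10990 in EV0S. This was the largest fitted change of the 10, with a log2 fold change of 0.39, and also the least precise, with a standard error of 0.123 (limma adjusted p = 0.119). EV0S repeat 3 lay 23.7% below the mean of its companions, and without it the log2 fold change was 0.24. In ABPS it had 12905, 12416 and 15590, against 14105, 14233 and 14610 in AB0S. ABPS repeat 3 was 23.1% above the mean of the other ABPS libraries, so that the 3 ABPS values lie on both sides of those of AB0S.

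*puf-5* (WBGene00004241; chromosome II, 8575541 to 8577787, plus strand) encodes a Pumilio-family repressor of late oogenesis. It had 25912, 26337 and 24132 normalized values in EVPS, against 23345, 22140 and 19154 in EV0S. Here the gap between the groups was narrow, and the change of 0.24 on the log2 scale (standard error 0.0758, limma adjusted p = 0.113) did not pass. Leaving out EV0S repeat 3 gave 0.17, which passed (limma adjusted p = 0.0942). The ABPS libraries, with 22919, 23219 and 23353, lay inside the AB0S range of 22118, 23536 and 22960.

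*oma-1* (WBGene00003864; chromosome IV, 8888976 to 8890999, plus strand) and *oma-2* (WBGene00003865; chromosome V, 8029439 to 8031214, plus strand) encode CCCH zinc-finger proteins that act redundantly in oocyte maturation. *oma-1* had 9593, 9711 and 8927 normalized values in EVPS, against 7809, 7593 and 6635 in EV0S, and the lowest EVPS library was well above the highest EV0S library. It rose by 0.36 on the log2 scale (standard error 0.0669, limma adjusted p = 0.0511). *oma-2* had 15556, 15581 and 14217 in EVPS, against 13110, 12370 and 10760 in EV0S, and rose by 0.33 on the log2 scale (standard error 0.0762, limma adjusted p = 0.0616). Both still passed without EV0S repeat 3, with log2 fold changes of 0.29 for *oma-1* and 0.25 for *oma-2*.

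With Aβ RNAi the pair was level. *oma-1* had 8135, 8140 and 8363 in ABPS, against 8226, 8225 and 8520 in AB0S, each ABPS library slightly below the AB0S library of the same repeat. *oma-2* had 12856, 12881 and 13277 in ABPS, within the AB0S values of 12507, 13436.5 and 13333. The ratio of *oma-2* to *oma-1* per kilobase stayed between 1.771 and 1.956 in the 12 libraries, so the 2 messages kept nearly the same proportion.

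*mex-3* (WBGene00003229; chromosome I, 127285 to 134270, plus strand) encodes a KH-domain protein that restricts the messages of cell fate genes such as *pal-1* in the early embryo. It had 13917, 14013 and 12965 normalized values in EVPS, against 11096, 11268 and 10227 in EV0S. The groups stand clear of each other, and *mex-3* rose by 0.33 on the log2 scale (standard error 0.0588, limma adjusted p = 0.0511) and by 0.29 without EV0S repeat 3. In ABPS it had 11931, 12028 and 12335, against 11941, 12355 and 12236 in AB0S, which overlap.

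*mex-5* (WBGene00003230; chromosome IV, 13353723 to 13356104, plus strand) and *mex-6* (WBGene00003231; chromosome II, 9524174 to 9526359, plus strand) encode a related pair of CCCH-finger proteins that set the difference between body and germ line in the zygote. *mex-5* had 25339, 25254 and 22769 normalized values in EVPS, against 19752, 20326 and 17904 in EV0S, and rose by 0.34 on the log2 scale (standard error 0.0728, limma adjusted p = 0.0565). *mex-6* had 13838, 13768 and 12456 in EVPS, against 10795, 10605 and 9765 in EV0S, and rose by 0.36 (standard error 0.0648, limma adjusted p = 0.0511). Every EVPS library was above every EV0S library for both genes, and without EV0S repeat 3 the log2 fold changes were 0.29 for *mex-5* and 0.32 for *mex-6*.

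In the Aβ RNAi groups, *mex-5* had 21474, 22126 and 22502 in ABPS, within the range set by 21046.5, 21835 and 22571 in AB0S. *mex-6* had 11484, 11798 and 12122 in ABPS, against 11167, 11646 and 11698 in AB0S; it was slightly higher in ABPS in all 3 repeats, although the groups overlap. The ratio of *mex-5* to *mex-6* per kilobase lay between 1.754 and 1.851 in all 12 libraries.

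*pos-1* (WBGene00004078; chromosome V, 8414086 to 8415254, plus strand) encodes a CCCH-finger protein of the posterior blastomeres that represses the message of the Notch receptor gene *glp-1*. Its values were 21644, 21685 and 20069 in EVPS, against 17003, 16699 and 16233 in EV0S, the widest gap of the 10 relative to the spread within EV0S. The rise was 0.34 on the log2 scale (standard error 0.0602, limma adjusted p = 0.0511), and leaving out EV0S repeat 3, which was only 3.67% below its companions for this gene, hardly moved it (0.33). In ABPS *pos-1* had 18257, 18853.5 and 18590, against 18629, 18854 and 19408 in AB0S, with overlap.

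*pie-1* (WBGene00004027; chromosome III, 12426893 to 12429195, plus strand) encodes a CCCH-finger protein that keeps transcription off in the germ line blastomeres. It shares 24 exon bases with *snr-6* on the opposite strand, and whether the reads were counted by strand is not given in the sources used here, so its values are less certain. *pie-1* had 3261, 3273 and 3043 normalized values in EVPS, against 2929, 2735 and 2424 in EV0S. It rose by 0.25 on the log2 scale (standard error 0.066, limma adjusted p = 0.079), and by 0.18 without EV0S repeat 3. The ABPS libraries, with 2881, 3098 and 3006, were each above the AB0S library of the same repeat, at 2798, 2890 and 2852, but the ranges overlap.

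Read against the rest of the table, the regulators lay among genes that moved the same way. All 10 had EVPS and EV0S libraries that did not overlap with EVPS higher, against 14.9% of all genes, and 9 of the 10, *pie-1* being the exception, had all 3 EVPS libraries above all 9 other libraries, against 5.26% of all genes and 18.3% of those with a mean normalized value of at least 2000. Among the 3235 genes with a mean normalized value of at least 2000, a level that all the regulators exceed, 18.5% rose between EVPS and EV0S, 41.5% did not overlap with EVPS higher, and the median log2 fold change was 0.09. The median of all genes was -0.05.

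The calls between EVPS and EV0S depend on single libraries, whereas the direction did not. None of the regulators and no other gene passed in limma without EVPS repeat 1, EVPS repeat 2, EV0S repeat 1, EV0S repeat 2 or ABPS repeat 1, or when only the EVPS and EV0S libraries were fitted, and 8 regulators passed without EV0S repeat 3. In that last fit 6.61% of all genes rose, and 18.5% of those with a mean of at least 2000. All 10 regulators had an unadjusted p below 0.05 in the fit of all 12 libraries, against 3702 of 19089 genes and 1219 of the 3235 with a mean of at least 2000. In the 22 other settings every log2 fold change of the regulators stayed between 0.16 and 0.46.

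With Aβ RNAi, none of the regulators passed between ABPS and AB0S in limma, as for all genes (0%), and none had an unadjusted p below 0.05, which 3034 of the 19089 genes had. The count over all genes depends on the fit: 2427 passed with only these 2 groups and 3085 without EV0S repeat 3, with no regulator among them. 5 of the 10 were above 0 and 5 below, with a median log2 fold change of 0.00096, and 0 had groups without overlap, against 14.9% of all genes with ABPS higher and 14.5% with ABPS lower. The 95% interval of the log2 fold change ran from -0.14 to 0.12 for *mex-3*, the narrowest, and from -0.35 to 0.20 for *lin-41*, the widest. For all 10 regulators the upper end, from 0.10 (*pos-1*) to 0.22 (*pie-1* and *gld-1*), was below the fitted change between EVPS and EV0S, a change with an error of its own. After quantile normalization 1 regulator was above 0 and the median was -0.14, and after rescaling by trimmed means of M values (TMM) 3 were above 0, so no direction can be given for this comparison.

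**Figure D2:**
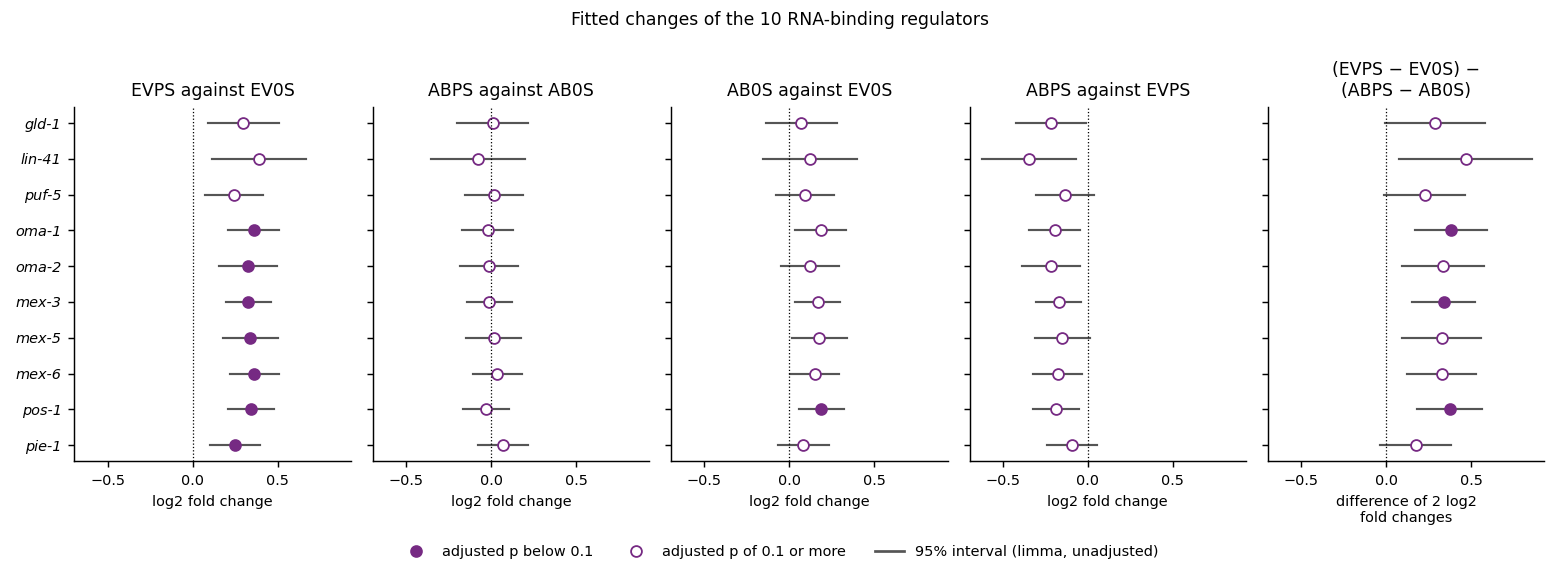
Fitted log2 fold changes (points) with unadjusted 95% limma intervals (lines) of the 10 regulators in 4 comparisons and, in the last panel, the difference between the peptide changes without and with Aβ RNAi. Filled points have an adjusted p below 0.1: 7 between EVPS and EV0S, 0 between ABPS and AB0S, 1 between AB0S and EV0S, 0 between ABPS and EVPS and 3 for the difference.

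The difference of the 2 peptide changes, that with the empty vector minus that with Aβ RNAi, was tested as an interaction. It was above 0 for all 10 regulators, between 0.17 (*pie-1*) and 0.47 (*lin-41*) on the log2 scale, with a median of 0.33. For 3 of them it passed the threshold, against 2.98% of all genes in either direction, 2.37% in this one and 7.7% in this one among genes with a mean of at least 2000. They were *pos-1* (0.37, standard error 0.0851, limma adjusted p = 0.0863), *mex-3* (0.34, standard error 0.0831, limma adjusted p = 0.0932) and *oma-1* (0.38, standard error 0.0946, limma adjusted p = 0.0958). *lin-41* had the largest difference and did not pass (standard error 0.174, limma adjusted p = 0.21).

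6 regulators passed without EV0S repeat 3: *oma-1*, *oma-2*, *mex-3*, *mex-5*, *mex-6* and *pos-1*, and 4 passed without EVPS repeat 3 or without ABPS repeat 3. Without EV0S repeat 3 the number of all 19089 genes that passed grew as well, from 569 to 4908, of which 1959 were in this direction. In this direction 594 passed without EVPS repeat 3 and 487 without ABPS repeat 3. No regulator passed when any of the other 9 libraries was left out, at which no gene of the table passed either. The sign did not change in any of the 21 other settings, where the differences lay between 0.11 and 0.63.

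Aβ RNAi without the peptide was compared as AB0S against EV0S. All 10 regulators were higher in AB0S on average, with log2 fold changes between 0.07 (*gld-1*) and 0.19 (*pos-1*) and a median of 0.13, and only *pos-1* passed, just under the threshold (0.19, standard error 0.0602, limma adjusted p = 0.099974), against 11.1% of all genes in either direction, 2.82% that rose and 6.65% that rose among genes with a mean of at least 2000. The AB0S and EV0S libraries did not overlap, with AB0S higher, for *oma-1*, *mex-3*, *mex-5*, *mex-6* and *pos-1*, 5 of 10 against 12.9% of all genes and 26.8% of those with a mean of at least 2000. These are 4 of the 5 regulators of the early embryo and 1 of those of the oocyte.

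This comparison leans on EV0S repeat 3. Without it the regulators' median log2 fold change fell to 0.08, against 0.13 with it. *gld-1* and *lin-41* turned to -0.03 and -0.02, and *mex-3* (0.13) and *pos-1* (0.18) passed. Rises were common in that fit, with 15.2% of all genes and 13.6% of those with a mean of at least 2000. The call of *pos-1* was lost when any 1 of the other 11 libraries was left out. After TMM rescaling 5 regulators rose, the same 5 whose groups do not overlap, and 1263 of 2982 called genes rose, against 538 of 2114 without that rescaling.

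Among peptide-treated worms, ABPS against EVPS, all 10 regulators were lower with Aβ RNAi, with log2 fold changes between -0.35 (*lin-41*) and -0.09 (*pie-1*) and a median of -0.18. 9 of the 10, all but *pie-1*, had ABPS libraries entirely below the EVPS libraries, against 15.1% of all genes and 32.1% of those with a mean of at least 2000. None passed in limma, against 0.272% of all genes, although 7 had an unadjusted p below 0.05, against 3018 of 19089 genes and 872 of the 3235 with a mean of at least 2000. Without EV0S repeat 3, which is not part of this contrast but enters the shared estimate of the spread, 7 regulators passed, and without ABPS repeat 3 only *lin-41* did. Of all genes 2923 passed without EV0S repeat 3, 1594 of them higher, and 803 without ABPS repeat 3, 367 of them higher. Each group enters 2 of the 4 comparisons, so they share libraries and are not separate evidence. In group means all 10 regulators were highest in EVPS and lowest in EV0S, with the ABPS and AB0S means between.

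The spread within a group differed between genes. The coefficient of variation ran from 4.07% (*pie-1*) to 8.2% (*lin-41*) in EVPS, from 2.33% (*pos-1*) to 14.9% (*lin-41*) in EV0S, from 0.96% (*puf-5*) to 12.5% (*lin-41*) in ABPS and from 1.63% (*pie-1*) to 3.89% (*oma-2*) in AB0S. *lin-41* was thus the most variable regulator in each group except AB0S. *gld-1* shared its pattern. ABPS repeat 3 stood well above the other ABPS libraries for both genes, whereas for the other 8 regulators it was between 0.186% and 4.13% above them.

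Over the 12 libraries the members' log2 values were closely correlated, with Pearson r between 0.78 (*pos-1* with *lin-41*) and 0.985 (*mex-3* with *mex-6*) and a median of 0.92. The libraries share groups, repeats and the authors' correction, so these coefficients describe the table and were not tested. *gld-1* and *lin-41* were most alike each other among the members (r = 0.975), whereas *mex-3*, *mex-5*, *mex-6*, *pos-1* and *oma-1* correlated at 0.958 to 0.985 with each other. *puf-5* was nearest to *oma-2* (0.983), and *pie-1* was nearest to *puf-5* (0.964).

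**Figure D3:**
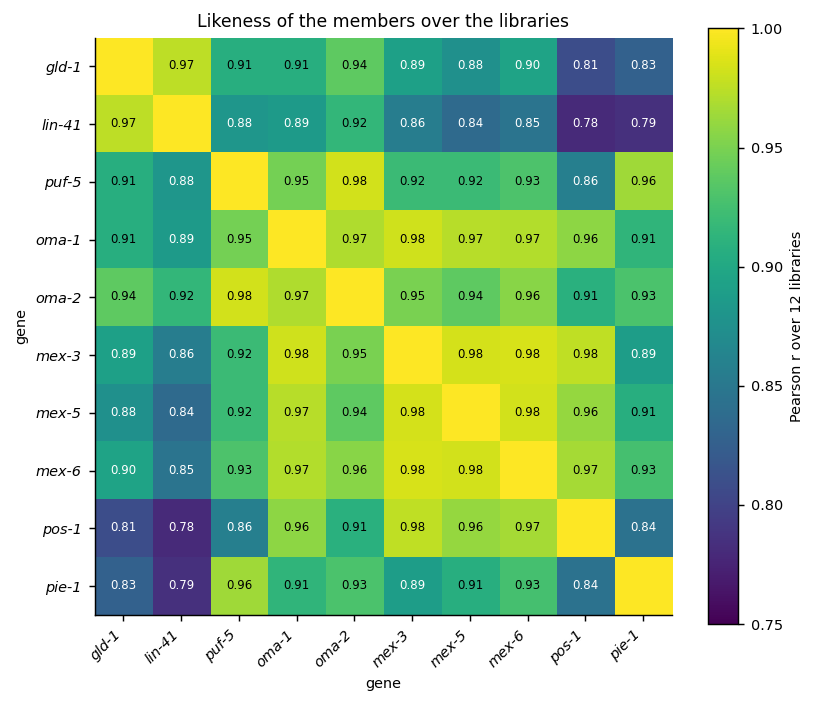
Pearson r of log2(normalized value + 1) between each pair of regulators (both axes: genes) over the 12 libraries, with the value printed in each cell. *gld-1* and *lin-41* are alike (0.975) and are furthest from *pos-1* (0.81 and 0.78), while the *mex* genes, *pos-1* and *oma-1* form a block above 0.95.

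Outside the members, the genes most like their mean standardized profile, out of 15516 genes with a mean of at least 10, were *rskd-1* (r = 0.9908), *wee-1.3* (0.989), *meg-1* (0.9888), *sel-5* (0.988) and *gld-3* (0.9874). WEE-1.3 is the kinase that holds CDK-1 inactive in oocytes, MEG-1 is a component of germ granules in the embryo, and GLD-3 is a partner of the cytoplasmic poly(A) polymerase GLD-2. Taken gene by gene over all genes, *lin-41* was most like *gld-2* itself (0.9887), *mex-3* was most like *gld-3* (0.99), *mex-5* was most like *mex-3* (0.9845), and *mex-6* was most like D2023.6 (0.9949). The nearest genes to the rest were *memi-3* for *gld-1* (0.9856), *tdc-1* for *oma-1* (0.9877), *ztf-1* for *oma-2* (0.9905), *unc-61* for *pos-1* (0.9852), *cec-10* for *pie-1* (0.9757) and *cpg-4* for *puf-5* (0.986).

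Of 26 other RNA regulators of the germ line, 13 rose between EVPS and EV0S and none fell, with a median log2 fold change of 0.25, against 5.51% of all genes and 18.5% of those with a mean of at least 2000 that rose. With the smallest p were *puf-7* (0.36) and *puf-6* (0.34), both Pumilio-family genes close to *puf-5*, *fog-1* (0.42), which promotes sperm fate, and *spn-4* (0.42), an RNA-binding protein of the early embryo. *spn-4* averaged 25450 ± 1630 normalized values in EVPS and 19000 ± 389 in EV0S (SD, n = 3 each). *puf-6* and *puf-7* are nearly identical in sequence, as are *puf-3* and *puf-11* and *fbf-1* and *fbf-2*, and how reads that fit both copies were counted is not given, so the values of these pairs are uncertain.

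Of 16 known target messages of the regulators 14 rose and none fell, with a median of 0.31. These include *spn-4*, the phosphatase gene *cdc-25.3* (0.32), *zif-1* (0.34) and the sex determination gene *tra-2* (0.36), whose message GLD-1 represses. ZIF-1 is the adaptor that brings CCCH-finger proteins to degradation in body cells of the embryo, and its message is held back by OMA-1 and OMA-2 in the oocyte. Of 20 polarity and turnover partners 6 rose and none fell, with a median of 0.14. They were led by *pkc-3* (0.33) and *par-3* (0.35), which mark the anterior cortex of the zygote, *zif-1* and *sel-10* (0.24), an F-box gene. *spn-4* and *nos-2* stand on both the first and the second list, and *zif-1* on the second and the third. In the fit without EV0S repeat 3, 13 of 26, 13 of 16 and 6 of 20 rose, against 6.61% of all genes and 18.5% of those with a mean of at least 2000. As for the members, all counts were 0 without EVPS repeat 1 or 2, EV0S repeat 1 or 2, or ABPS repeat 1.

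With Aβ RNAi, none of the genes on these lists passed between ABPS and AB0S in limma, and 1 on each list had an unadjusted p below 0.05. The medians were 0.0022 for the other RNA regulators, -0.02 for the target messages and 0.0063 for the partners. With the smallest p were *etr-1* (-0.11, limma adjusted p = 0.311) and *fbf-2* (0.11, limma adjusted p = 0.571) among the other RNA regulators, *mes-3* (-0.17, limma adjusted p = 0.279) and *tra-2* (-0.14, limma adjusted p = 0.326) among the targets, and *mbk-2* (-0.20, limma adjusted p = 0.282) and *par-5* (0.21, limma adjusted p = 0.337) among the partners. Without EV0S repeat 3, 1 target was lower and 2 partners were higher and 1 lower at the threshold. In that fit 3085 of 19089 genes passed, 2010 of them higher.

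**Figure D4:**
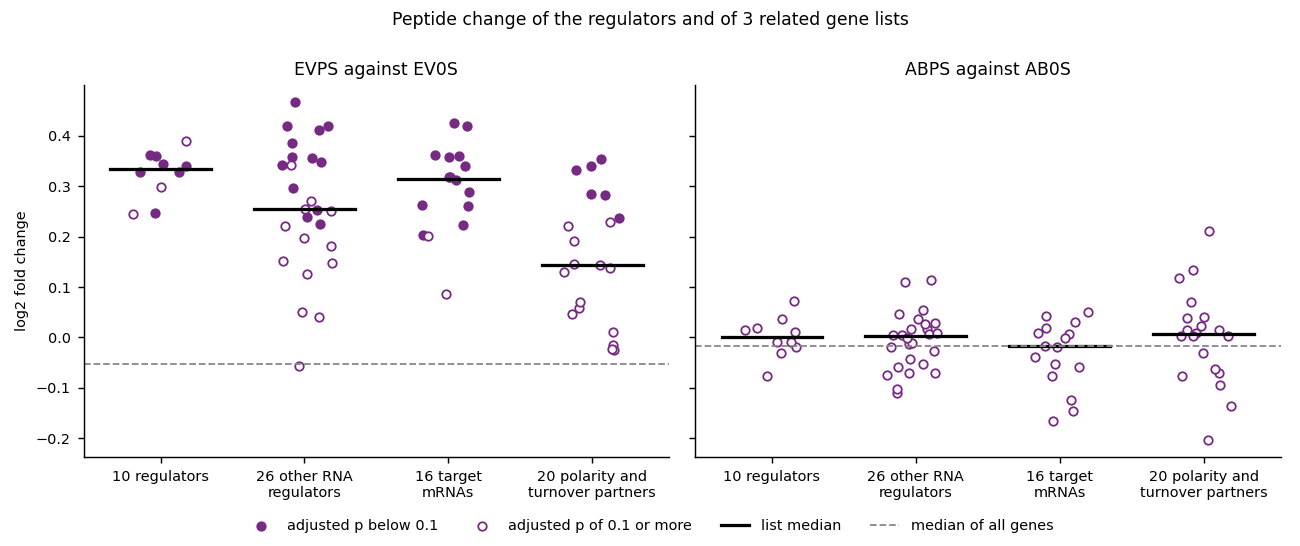
Log2 fold changes (vertical axis) of single genes (points, filled where the adjusted p is below 0.1) in the 10 regulators and 3 related lists, with the list median (solid line) and the median of all genes (dashed line), for EVPS against EV0S on the left and ABPS against AB0S on the right. On the left the 4 medians are 0.33, 0.25, 0.31 and 0.14, and on the right all 4 lie within 0.02 of 0.

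The difference of the peptide changes passed, all with a larger change on the empty vector, for 5 of 26 other RNA regulators, 7 of 16 targets and 3 of 20 partners, against 2.37% of all genes and 7.7% of those with a mean of at least 2000. *puf-6* (0.39), *spn-4* (0.48), *puf-7* (0.38) and *gld-3* (0.45) had the smallest p on the first list. *mes-3* (0.43), which encodes a chromatin protein and is a target of GLD-1, *tra-2* (0.50), *spn-4* and *zif-1* (0.42) led the second. The partners were *pkc-3* (0.39), *zif-1* and *mbk-2* (0.49), the kinase that marks OMA-1 and MEX-5 at the start of embryogenesis. Without EV0S repeat 3 the counts in this direction were 12 of 26, 13 of 16 and 6 of 20, against 1959 of all 19089 genes. All counts were 0 when any of 9 libraries was left out, the exceptions being EV0S repeat 3, EVPS repeat 3 and ABPS repeat 3.

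Between AB0S and EV0S the genes that passed on these lists all rose: *puf-7* (0.18) and *nos-2* (0.22) of the other RNA regulators, *mes-3*, *tra-2* (0.22) and *nos-2* of the targets, and *pkc-3* (0.22) and *mbk-2* (0.26) of the partners. In this fit of all 12 libraries 2.82% of all genes rose, and 6.65% of those with a mean of at least 2000. When EV0S repeat 3 was left out, 3 of 26 rose and 1 fell, 6 of 16 rose and none fell, and 3 of 20 rose and 3 fell. Then 15.2% of all genes and 13.6% of those with a mean of at least 2000 rose. In the same fit 3625 of 19089 and 748 of 3235 fell. Between ABPS and EVPS none passed in limma, with 12 of 26, 10 of 16 and 7 of 20 at an unadjusted p below 0.05 and medians of -0.17, -0.17 and -0.10. Of all genes 3018 of 19089 had such a p, and 872 of the 3235 with a mean of at least 2000. *puf-6* (-0.24), *spn-4* (-0.27), *mes-3* (-0.23), *zif-1* (-0.28) and *par-3* (-0.30) had the smallest p among the listed genes. Without EV0S repeat 3, 16 of 26, 10 of 16 and 7 of 20 fell and 1 partner rose. In that fit 2923 of all genes passed, 1594 of them higher.

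Oocyte, meiotic and embryo markers were read beside the regulators. The 8 oocyte and eggshell markers summed to between 233600 and 247200 normalized values in EVPS, against between 187600 and 229300 in EV0S, where repeats 1 and 2 alone had 218900 to 229300. Of these markers 3 of 8 rose (*egg-1*, *egg-2* and *chs-1*), with a median log2 fold change of 0.24, while *perm-2* and *perm-4* were at -0.03 and -0.02. When EV0S repeat 3 was left out, 2 of 8 rose (*egg-1* and *chs-1*), with a median of 0.14. The 6 meiotic markers summed to between 16200 and 16690 in EVPS, against between 13520 and 16120 in EV0S (15010 to 16120 in repeats 1 and 2), and 1 of 6 rose with or without EV0S repeat 3. For the zygotic embryo markers the sums were 409.8 to 509.7 in EVPS, against 472.3 to 717.1 in EV0S, with 6 of 8 below 0 and none passing. Leaving out EV0S repeat 3 gave 5 of 8 below 0 and 1 that rose, *hlh-27*. Its values lay near 0 in every library, between 0.07 and 2.565, so its change carries little weight.

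A scale relative to the mean log2 value of the oocyte and eggshell markers of the same library was added after the data had been seen. On it 8 of the 10 regulators had EVPS libraries above all EV0S libraries, *lin-41* and *puf-5* being the others, against 1.77% of all genes and 5.41% of those with a mean of at least 2000. For *gld-1*, *pos-1* and *pie-1* the gap was very small. The lowest EVPS library of *gld-1* was at 0.4776, against 0.4688 for the highest of EV0S. That of *pos-1* was at -0.0096, against -0.0104, and that of *pie-1* was at -2.731, against -2.737. The mean difference was 0.05 (*puf-5*) to 0.19 (*lin-41*), with a median of 0.14, against -0.25 for all genes. The reference includes *perm-2* and *perm-4*, whose fitted changes were slightly below 0, while those of the other 6 markers were above 0. These 2 genes lower the change of the reference and so raise these differences. The scale was not computed without them. Without EV0S repeat 3 the count was also 8, against 8.34% of all genes, and the median was 0.15. For AB0S against EV0S the median of the relative differences was -0.0063. The part of the oocyte markers in these results was not tested further.

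None of the muscle, intestine, sperm, or gonad sheath and spermatheca markers passed between EVPS and EV0S in limma; 1 intestine and 1 sheath or spermatheca marker had an unadjusted p below 0.05. Body wall muscle markers (5 genes) summed to between 118000 and 124100 normalized values in EVPS, against 81560 to 145300 in EV0S, and intestine markers (5 genes) to between 57100 and 63090, against 44820 to 82200, in both cases with EV0S repeat 3 far below the other EV0S libraries. Sperm markers summed to between 2361 and 3032 in EVPS, against 1632 to 3344 in EV0S, and markers of the gonad sheath and spermatheca (4 genes) to between 1027 and 1122, against 1268 to 1359. In the fit without EV0S repeat 3, 3 of 5 muscle and 4 of 5 intestine markers fell, and no sperm or sheath marker passed.

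With Aβ RNAi the oocyte and eggshell markers summed to between 232200 and 240600 in ABPS, against 225800 to 234500 in AB0S. The sperm markers summed to between 1259 and 3242 in ABPS, against 1009 to 1155 in AB0S, and 9 of 10 fell between AB0S and EV0S, with a median log2 fold change of -1.30 (9 of 10 and -1.80 without EV0S repeat 3). Body wall muscle markers summed to between 85630 and 127000 in ABPS, against 78370 to 85090 in AB0S. The part of these cell types in the regulators' changes was not tested.

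**Figure D5:**
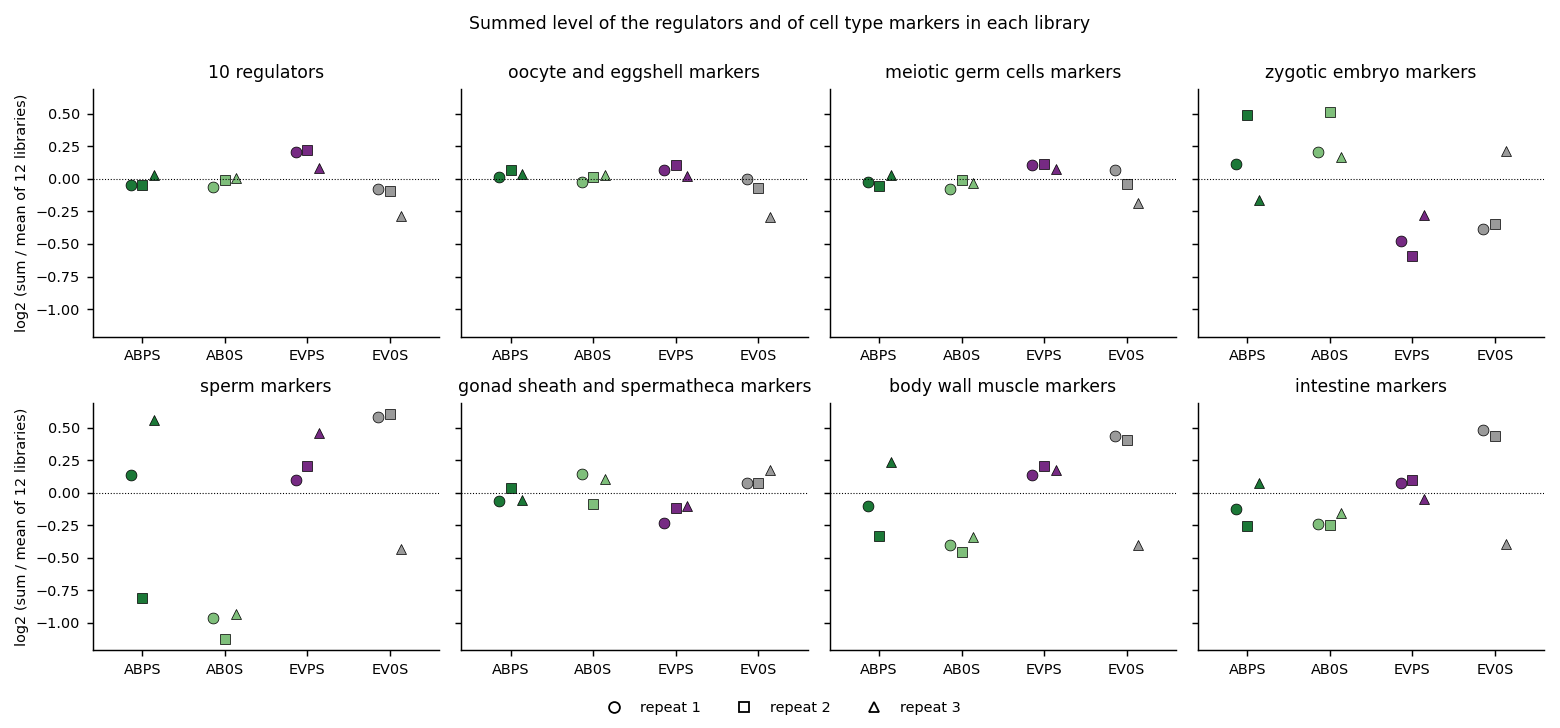
Sum of normalized values over the 10 regulators and over 7 lists of cell type markers in each library, as log2 of its ratio to the mean of the 12 libraries (vertical axis), by group and repeat (points). The regulators are highest in the 3 EVPS libraries, the oocyte markers of EVPS and ABPS overlap, and EV0S repeat 3 (triangle) lies apart from its group in the muscle, intestine and sperm panels.

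As a share of the whole library, the regulators made up 0.576% to 0.651% of all normalized values in EVPS, against 0.5% to 0.521% in EV0S. The share of EV0S repeat 3 was 0.521%, the highest of its group, so leaving it out would not narrow the gap between EVPS and EV0S on this scale. A share also depends on the rest of the library, and the muscle and intestine sums of EV0S repeat 3 were far below those of its group. With Aβ RNAi the shares were 0.518% to 0.544% in ABPS, against 0.562% to 0.573% in AB0S, and here the ABPS libraries were below all AB0S libraries. The AB0S libraries were also all above the EV0S libraries on this scale.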

How the data were processed

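Polyadenylated RNA of 12 pools of whole CL2006 worms (4 groups of 3 repeats, groups from the sample labels) was sequenced single-end with a stranded kit. Per the labels and the methods, the authors trimmed reads with cutadapt 2.10, aligned them to WBcel235 with TopHat 2.1.1, counted them with HTSeq 2.01, normalized the counts with DESeq2 1.36.0 and corrected the result for the 3 repeats by a method not given in the sources used here. The deposited values are therefore a score on a linear scale without a fixed unit. They are not whole, 307 of 229068 are below 0, and library sums from 24082771 to 29142841 are not depths, so no count test was used and counting error is unknown.

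After negative values had been replaced by 0, the log2(value + 1) of all 19089 genes went into a limma model (version 3.58.1, R 4.3.3; moderated by eBayes along a mean-variance trend) of the 12 libraries with terms for group and repeat. Benjamini-Hochberg adjusted p below 0.1 was the threshold, as in the study's methods. The contrasts set each peptide group against its buffer group and each Aβ RNAi group against its empty-vector group, and an interaction took the difference of the peptide changes. The fit was also run on simulated data with independent noise for each gene and library and no repeat effect. That run does not cover a library that stands apart or genes that vary together. Ensembl models of WBcel235 gave positions and exon lengths for 19085 genes. Tables were made with pandas 2.3.3 and numpy 2.4.6, and plots with matplotlib 3.10.9, in Python 3.11.15.

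The repeat numbers come from the labels. Deviations from the group means correlated at a mean r of -0.18 over 18 pairs of libraries with the same number and 0.09 over 36 pairs with different numbers, after the authors' correction.

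The members, the related lists and the markers were chosen with earlier results of these data known. Named were all members, up to 4 called genes of smallest p from each related list (the 2 of smallest p where none was called), the 5 genes most like the members' mean profile, and for each member its most similar gene. Alternatives were other pseudocounts (0.1 and 5), filters at a mean of 1 or 10, no replicate block, only the 2 groups compared, TMM or quantile rescaling, eBayes without trend, eBayes with trend and robust, a threshold of 0.05, and each library left out.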

Additional observations from a re-analysis of the deposited data

Results flagged for a closer look

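The difference of the change with the 5MER between worms on the empty vector and worms on Aβ RNAi passed in limma for 3 of the 10 regulators. In this direction it passed for 2.37% of all genes and 7.7% of those with a mean of at least 2000. No regulator passed at a threshold of 0.05, in eBayes without trend, or when any of 9 of the 12 libraries was left out. The difference was 0.3794 on the log2 scale for *oma-1* (limma adjusted p = 0.0958), 0.3373 for *mex-3* (limma adjusted p = 0.0932) and 0.3741 for *pos-1* (limma adjusted p = 0.0863), and in each case EVPS was above EV0S in 3 of 3 repeats. ABPS was above AB0S in 0 of 3 repeats for *oma-1* and *pos-1* and in 1 of 3 for *mex-3*.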

How the results depend on the processing

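The count of regulators that passed between EVPS and EV0S, 7, was 0 with only these 2 groups in the fit, 0 in eBayes without trend, 0 at a threshold of 0.05, 10 without the replicate block, 10 with TMM and 9 with quantile rescaling, and 0 to 9 when 1 library was left out. For AB0S against EV0S, 1 was 0 with a pseudocount of 5, with a mean filter of 10, with only the 2 groups, in eBayes without trend, in eBayes with trend and robust and at 0.05, 3 without the replicate block, 5 with TMM, and 0 to 2 with 1 library left out. With quantile rescaling the count stayed at 1, but the gene was *oma-1*. *pos-1* passed in 5 of the 22 other settings. For ABPS against EVPS, 0 became 1 (*pos-1*) without the replicate block and 0 to 7 with 1 library left out. For the difference of the peptide changes, 3 was 6 without the replicate block, 6 with TMM, 9 with quantile rescaling, 0 in eBayes without trend, 0 at 0.05, and 0 to 6 with 1 library left out. No regulator passed between ABPS and AB0S in any setting. Where a count fell to 0 with a library left out, the cause was not tested. Over all genes, leaving out 1 library gave 0 to 2633 calls for EVPS against EV0S (1399 with all), 0 to 3085 for ABPS against AB0S (0), 10 to 6524 for AB0S against EV0S (2114), 0 to 2923 for ABPS against EVPS (52) and 0 to 4908 for the difference (569). Without the replicate block these counts were 2490, 7, 3380, 920 and 1785, at 0.05 they were 4, 0, 656, 9 and 0, and in eBayes without trend 0, 0, 1030, 0 and 0. With only the 2 groups they were 0, 2427, 791 and 93 for the 4 pairs, with quantile rescaling 605, 1, 1100, 52 and 922, and the difference had 1304 with TMM and 909 with a mean filter of 10. No called regulator changed direction in any setting. Among those not called, the sign changed in 25 of 220 values for ABPS against AB0S and in 2 of 220 for AB0S against EV0S. Depth is unknown, so no limit from counting can be set.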
